A study of Mus musculus with 8 samples.

Results

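Germline genes that are held silent by promoter methylation in somatic cells were followed in mouse embryonic stem cells (mESCs) with and without Importin-13 (IPO13), a nuclear transport receptor. The set comprised 10 autosomal genes, Dazl, Ddx4, Mael, Tdrkh, Stk31, Sycp1, Sycp3, Hormad1, Tex101 and Slc25a31, taken by symbol from the 23420 symbols of the deposited count tables, and every one of them was counted in every library, with between 11 and 2374 reads. The study sequenced RNA of an IPO13+/+ line and of an IPO13-/- knockout line, both of mixed 129 x C57BL/6 background and derived from blastocysts, to find genes that depend on IPO13 during oxidative stress. Each line was examined untreated and after 125 µM H2O2 for 1 h followed by 2 h of recovery, which gave 4 groups of 2 libraries. All cells were grown without feeders in serum and leukaemia inhibitory factor. Each genotype was represented by 1 line, so that genotype and line cannot be told apart, and nothing states that the 2 libraries of a group came from separate cultures, so that p-values measure the spread between these libraries, which may be technical.

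Most cells of the body keep genes of the germline silent by methylating the CpG dinucleotides of their promoters, and the genes are opened when primordial germ cells erase this methylation. In mESCs a second layer is known, in which a Polycomb complex containing PCGF6, L3MBTL2, E2F6 and the MGA and MAX pair binds such promoters, and histone H3 lysine 9 methylation by SETDB1 or the EHMT1 and EHMT2 pair adds to the block. DNA methylation itself was not measured here. The data went against the word silent for these cells, because 7 of the 10 genes were clearly transcribed in untreated IPO13+/+ mESCs, with between 453 reads for Sycp3 and 1745 reads for Hormad1 in a library. On a scale of normalised counts, given as CPM (reads of a gene scaled to a common library size), divided by exon length, Hormad1 stood at percentile 81.2 of the 18088 genes with a known length, Mael at 72.5, Sycp3 at 67.1, Dazl at 63.5, Ddx4 at 63.2, Sycp1 at 63.0 and Stk31 at 58.7. Slc25a31, Tdrkh and Tex101 were lower, at percentiles 42.3, 30.8 and 30.4.

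The libraries held between 60397877 and 73789079 counted reads, and 3 reads, taken as the smallest count told from 0, corresponded to between 0.0407 and 0.0497 CPM. Such limits cover counting error only. Ipo13 itself had 4716 and 4786 reads in untreated IPO13+/+ cells, 4928 and 4791 after H2O2, 1965 and 1555 in untreated IPO13-/- cells and 1610 and 1604 after H2O2. It was thus lower in all 4 IPO13-/- libraries, with a log2 difference of -1.44 in untreated cells (SE 0.05, FDR = 9.5e-19 by edgeR's quasi-likelihood test). The 2 untreated IPO13+/+ libraries differed from each other more than those of any other group, with a chi-square of 15.02 per gene against between 2.27 and 6.59.

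The promoters of the 10 genes were read from RefSeq for build GRCm38.p6, as the 250 bases before the start, and 5 of them are shown because they span the range of responses described below. Capitals mark the E-box CACGTG, the sequence that MGA and MAX can bind, and the E2F-type sequence GCGGGA, read on either strand as GCGGGA or TCCCGC. Slc25a31 (chr3:40708621-40708870, plus strand) and Tdrkh (chr3:94412994-94413243, plus strand) had the largest differences between the genotypes, Dazl (chr17:50293621-50293870, minus strand) and Ddx4 (chr13:112652311-112652560, minus strand) had intermediate ones, and Hormad1 (chr3:95559427-95559676, plus strand) went the other way.
Slc25a31: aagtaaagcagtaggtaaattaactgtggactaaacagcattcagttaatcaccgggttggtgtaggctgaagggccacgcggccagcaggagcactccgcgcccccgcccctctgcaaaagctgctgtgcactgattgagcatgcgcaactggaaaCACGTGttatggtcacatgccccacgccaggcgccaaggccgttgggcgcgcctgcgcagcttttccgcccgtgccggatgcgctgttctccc
Tdrkh: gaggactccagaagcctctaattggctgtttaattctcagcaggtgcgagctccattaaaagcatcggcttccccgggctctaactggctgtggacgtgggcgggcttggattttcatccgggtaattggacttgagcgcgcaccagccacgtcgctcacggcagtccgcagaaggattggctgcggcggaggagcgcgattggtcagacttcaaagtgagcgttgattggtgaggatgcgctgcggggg
Dazl: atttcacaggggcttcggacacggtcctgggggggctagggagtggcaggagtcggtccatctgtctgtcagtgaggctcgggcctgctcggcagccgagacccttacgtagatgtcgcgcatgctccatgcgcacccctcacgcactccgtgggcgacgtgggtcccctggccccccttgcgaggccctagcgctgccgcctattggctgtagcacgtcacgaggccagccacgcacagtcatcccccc
Ddx4: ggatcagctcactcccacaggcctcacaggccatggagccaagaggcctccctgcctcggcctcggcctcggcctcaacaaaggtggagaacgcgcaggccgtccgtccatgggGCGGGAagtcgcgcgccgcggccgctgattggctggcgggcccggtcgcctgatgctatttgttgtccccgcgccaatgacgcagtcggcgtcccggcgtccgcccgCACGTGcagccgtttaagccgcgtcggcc
Hormad1: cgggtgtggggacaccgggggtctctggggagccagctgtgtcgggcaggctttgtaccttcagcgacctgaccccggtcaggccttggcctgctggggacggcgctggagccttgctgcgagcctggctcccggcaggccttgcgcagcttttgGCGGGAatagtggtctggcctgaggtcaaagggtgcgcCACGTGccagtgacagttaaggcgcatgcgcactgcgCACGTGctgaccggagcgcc

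The promoters were rich in CpG, a property tied to the choice of genes with promoters methylated in somatic cells and therefore given as a description. Of the 10, 8 had at least 15 CG dinucleotides, against 27.5% of 27025 promoters of the same length, whose median was 6. Ddx4 had the most, with 31, and Sycp3 and Tex101 fell below 15, with 12 and 14. The E-box was found in 7 of the 10 (Ddx4, Mael, Sycp1, Sycp3, Stk31, Hormad1 and Slc25a31), against 6.05% of all promoters. Of the 8 genes with at least 15 CG, 6 held it, against 9.92% of all promoters that rich in CG. The E2F-type sequence was found in 4 (Ddx4, Mael, Sycp3 and Hormad1), against 16.9% of all promoters and 42.7% of the CG-rich ones, and in 6 when the 50 bases after the start were added. All 4 also held the E-box, a pair present in 1.47% of all promoters. Dazl, Tdrkh and Tex101 held neither sequence, as did 78.5% of all promoters. Slc25a31 held the E-box alone, while the other genes past 2-fold in either treatment, Tdrkh, Tex101 and Dazl, held neither sequence. Hormad1 and Sycp3, the genes that were lower in untreated IPO13-/- cells, held both, as did Ddx4 and Mael, which were higher. The RefSeq start of Tex101 lay 4625 bases from the start of the gene in the GENCODE annotation, so its window may not be the promoter used here. That of Ddx4 lay 165 bases inside the gene by GENCODE. Both marked sequences of Ddx4 therefore lie after its GENCODE start.

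Loss of IPO13 went with higher expression of most of the 10 germline genes. The 10 were chosen with earlier results of these data known, so their counts and median describe these genes only. In untreated cells 8 of the 10 were higher in IPO13-/- mESCs at an FDR below 0.05 and 2 were lower, where 18.7% of the 19424 genes tested were higher and 19.4% lower. Of the 8, Slc25a31, Tdrkh and Tex101 were higher by at least 2-fold, as were 2.86% of all genes. After H2O2 the same 8 genes were higher, where 19.1% of all genes were, and Hormad1 was lower, where 17.5% were, and Dazl joined the 3 genes past 2-fold, a limit passed upward by 2.58% of all genes. The median log2 difference of the 10 genes was 0.73 in untreated and 0.74 in treated cells, against 0 for all genes tested. In 7 genes all 4 IPO13-/- libraries lay above all 4 IPO13+/+ libraries, which held for 15.7% of all genes. None of the 10 lay below in all 4, which held for 13% of all genes.

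**Figure D1:**
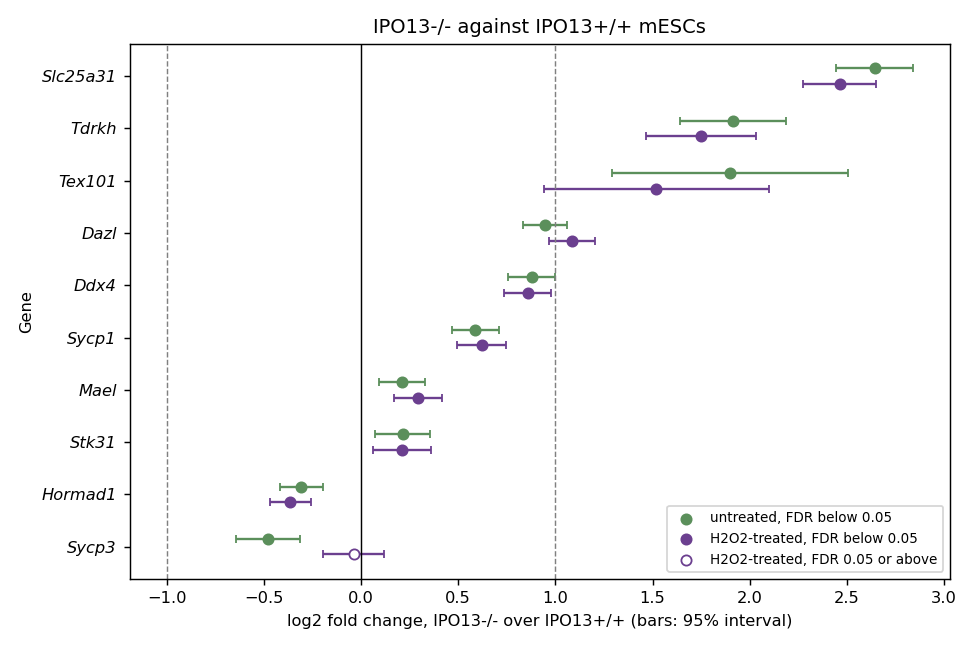
Log2 fold change of each germline gene between IPO13-/- and IPO13+/+ mESCs (horizontal axis), untreated and after H2O2, from edgeR's fit of 8 libraries. Bars are 95% intervals by a normal approximation, filled points passed an FDR of 0.05 and dashed lines mark 2-fold. The genes run from Slc25a31, at 2.64 untreated, down to Sycp3, at -0.48 untreated and near 0 after H2O2.

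Dazl and Ddx4 mark the germ cell lineage and act on RNA. Dazl, on chromosome 17 (50279395 to 50293636, minus strand, GRCm38), encodes an RNA-binding protein that promotes translation in germ cells. It had 17.3 and 15.5 normalised CPM in untreated IPO13+/+ cells, 13.6 and 14.0 after H2O2, 31.3 and 31.9 in untreated IPO13-/- cells and 28.2 and 30.3 after H2O2. The genotypes did not overlap, and the difference was 0.95 on the log2 scale in untreated cells (SE 0.06, edgeR's quasi-likelihood test, FDR = 4.5e-13) and 1.08 in treated cells (SE 0.06, FDR = 5.8e-14). The untreated value therefore stood just under the 2-fold limit and passed it, at 1.02, when replicate 1 of the untreated IPO13+/+ libraries was left out. Ddx4, on chromosome 13 (112598333 to 112652475, minus strand), encodes the vasa-type RNA helicase of germ cells. Its levels were 13.5 and 11.9 CPM in untreated IPO13+/+ cells, 12.3 and 13.1 after H2O2, 23.5 and 23.0 in untreated IPO13-/- cells and 23.0 and 22.9 after H2O2. Ddx4 was higher by 0.88 (SE 0.06, FDR = 6.2e-12) and 0.86 (SE 0.06, FDR = 1.4e-11) on the log2 scale, again with no overlap between genotypes.

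**Figure D2:**
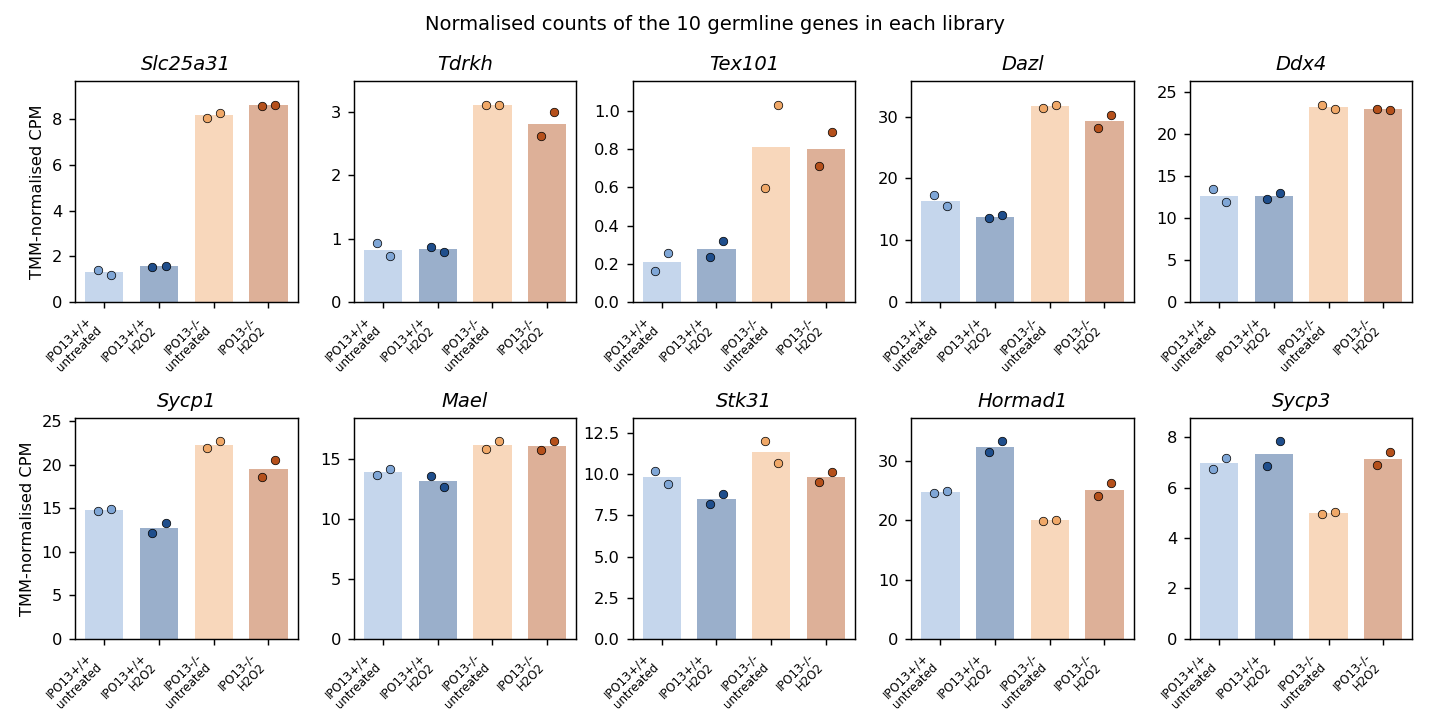
Normalised CPM (vertical axis, linear and from 0, a separate scale for each gene) of the 10 germline genes in the 4 groups. Points are the 2 libraries of a group and bars are their mean; the IPO13-/- bars stand well above the IPO13+/+ bars for the first 6 genes, and Sycp3 is lowest in untreated IPO13-/- cells, at 4.96 and 5.06 CPM.

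Mael, Tdrkh and Stk31 belong to the machinery of the germ granule and of piRNAs, the small RNAs that silence transposons in germ cells, and they responded to very different degrees. Tdrkh, a mitochondrial Tudor and KH domain protein needed for the trimming of piRNA precursors, lies on chromosome 3 (94413273 to 94434668, plus strand). Its values were 0.924 and 0.728 CPM in untreated IPO13+/+ cells, 0.867 and 0.796 after H2O2, 3.10 and 3.11 in untreated IPO13-/- cells and 2.61 and 2.99 after H2O2. This was a 3.76-fold difference in untreated cells (log2 1.91, SE 0.14, edgeR's quasi-likelihood test, FDR = 1.3e-11) and a 3.36-fold difference in treated cells (log2 1.75, SE 0.14, FDR = 1.6e-10). Tdrkh shares 36.7% of its exon bases with Oaz3 on the opposite strand, and Oaz3 was given at most 4 reads in any library. Since the strand setting of the counting is not given, that count cannot show how reads of the shared bases were handled. Their part in the Tdrkh count was not tested. The percentiles above divide by all exon bases, shared ones included. Mael, a germ granule protein required for transposon silencing, lies on chromosome 1 (166201201 to 166238747, minus strand). It ranged from 12.7 to 14.2 CPM over the 4 IPO13+/+ libraries and from 15.8 to 16.5 over the 4 IPO13-/- libraries. The difference was small, 0.21 (SE 0.06, FDR = 0.0067) in untreated and 0.29 (SE 0.06, FDR = 0.00040) in treated cells, and the untreated FDR rose to 0.068 without replicate 2 of the untreated IPO13-/- libraries. Stk31, which encodes a protein with a Tudor and a kinase domain, lies on chromosome 6 (49395604 to 49469501, plus strand). It had 686 and 660 reads in untreated IPO13+/+ cells, 557 and 609 after H2O2, 909 and 664 in untreated IPO13-/- cells and 618 and 627 after H2O2. In normalised CPM the genotypes overlapped over the treatments, with 8.19 to 10.2 in the IPO13+/+ libraries and 9.54 in the lowest IPO13-/- library, and the difference of 0.21 was at an FDR of 0.020 in untreated and 0.030 in treated cells by edgeR's quasi-likelihood test. The untreated call was lost without replicate 2 of the untreated IPO13+/+ libraries (FDR = 0.16) or replicate 1 of the untreated IPO13-/- libraries (FDR = 0.26), and the treated call without replicate 1 of the treated IPO13+/+ libraries (FDR = 0.26) or replicate 2 of the treated IPO13-/- libraries (FDR = 0.20). DESeq2 gave Stk31 an FDR of 0.093 in untreated and 0.13 in treated cells, limma-voom gave 0.061 in treated cells, and the calls held in 13 and 12 of 16 alternatives.

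The 3 genes of the synaptonemal complex and chromosome axis, structures of meiotic chromosomes, did not all differ in the same direction. Sycp1, on chromosome 3 (102818499 to 102936100, minus strand), encodes the transverse filament that holds paired chromosomes together. It had 14.7 and 14.9 CPM in untreated IPO13+/+ cells, 12.1 and 13.3 after H2O2, 21.9 and 22.7 in untreated IPO13-/- cells and 18.6 and 20.5 after H2O2, and was higher by 0.59 (SE 0.06, edgeR's quasi-likelihood test, FDR = 1.3e-08) and 0.62 (SE 0.06, FDR = 9.3e-09) on the log2 scale. Hormad1, on chromosome 3 (95559677 to 95587671, plus strand), encodes a HORMA domain protein of unsynapsed axes and was the most abundant of the 10 genes. Its values were 24.6 and 24.9 CPM in untreated IPO13+/+ cells, 31.5 and 33.3 after H2O2, 19.9 and 20.1 in untreated IPO13-/- cells and 24.0 and 26.3 after H2O2. Within each treatment both IPO13-/- libraries were below both IPO13+/+ libraries, with log2 differences of -0.31 (SE 0.06, FDR = 6.5e-05) in untreated and -0.36 (SE 0.05, FDR = 4.1e-06) in treated cells. Sycp3, on chromosome 10 (88459569 to 88473236, plus strand), encodes the axial element. It had 6.75 and 7.19 CPM in untreated IPO13+/+ cells, 6.86 and 7.84 after H2O2, 4.96 and 5.06 in untreated IPO13-/- cells and 6.90 and 7.42 after H2O2. Sycp3 was thus lower in untreated IPO13-/- cells, with a log2 difference of -0.48 (SE 0.08, FDR = 4.2e-05), while the treated groups overlapped (log2 -0.04, 95% interval -0.20 to 0.12, FDR = 0.76). Sycp3 shares 660 exon bases, 52.2% of its exons, with Chpt1 on the opposite strand, and since the counting is not stated to use strand, reads of the pair cannot be told apart there. Chpt1, which encodes a choline phosphotransferase, went the other way by 0.21 (SE 0.07, FDR = 0.011) in untreated cells.

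The remaining genes were Slc25a31, with the largest difference of the 10, and Tex101. Slc25a31, on chromosome 3 (40708855 to 40726096, plus strand), encodes ANT4, the testis form of the mitochondrial ADP/ATP carrier. It had 95 and 84 reads in untreated IPO13+/+ cells and 106 and 108 after H2O2, against 610 and 514 in untreated IPO13-/- cells and 556 and 534 after H2O2. In normalised CPM this was 1.42 and 1.20, then 1.56 and 1.56, against 8.05 and 8.28, then 8.59 and 8.63. The groups of the 2 genotypes lay far apart, with a 6.24-fold difference in untreated cells (log2 2.64, SE 0.10, edgeR's quasi-likelihood test, FDR = 1.1e-17) and a 5.51-fold difference in treated cells (log2 2.46, SE 0.10, FDR = 2.9e-17). The somatic carriers were far more abundant and differed much less. Slc25a5 (ANT2) had between 78643 and 92177 reads in a library and differed by -0.06 (SE 0.04, FDR = 0.22) in untreated cells, and Slc25a4 (ANT1) by -0.13 (SE 0.05, FDR = 0.039). Tex101, on chromosome 7 (24668007 to 24676675, minus strand), encodes a glycoprotein of the germ cell surface. It was the scarcest of the 10, with 11 and 18 reads in untreated IPO13+/+ cells, 16 and 22 after H2O2, 45 and 64 in untreated IPO13-/- cells and 46 and 55 after H2O2. The genotypes did not overlap, and the log2 difference was 1.90 (SE 0.31, FDR = 1.6e-05) untreated and 1.52 (SE 0.30, FDR = 0.00015) treated, with a wide error from the few reads.

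Log2 changes of the 10 germline genes after H2O2 lay between -0.25 and 0.39 in IPO13+/+ and between -0.21 and 0.52 in IPO13-/- cells. None of the 10 was called at 2-fold in either line by edgeR's quasi-likelihood test, limma-voom or DESeq2. Over all genes 2.9% were called in IPO13+/+ and 2.89% in IPO13-/- cells by edgeR. With shares this small, 0 of 10 does not set these genes apart from the others. In each line 4 of the 10 had an unadjusted p below 0.05 by edgeR's test. At an FDR below 0.05 alone, 1 gene rose and 3 fell in IPO13+/+ cells, where 11.5% of all genes rose and 13.8% fell. In IPO13-/- cells 2 rose and 2 fell, where 14.9% rose and 14.4% fell. Hormad1 rose in both lines, by 0.39 on the log2 scale in IPO13+/+ (SE 0.05, FDR = 2.8e-06) and 0.33 in IPO13-/- cells (SE 0.06, FDR = 4.2e-05). Sycp3 rose by 0.52 in IPO13-/- cells (SE 0.08, FDR = 2.7e-05), and its log2 difference of 0.08 in IPO13+/+ cells did not pass (95% interval -0.08 to 0.23).

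The genes that fell after H2O2 did so by small amounts that depended on single libraries and on the method. The 3 falls in IPO13+/+ cells were all lost in a fit of only the 4 libraries compared, and DESeq2 kept 1 of them and 0 of the 2 falls in IPO13-/- cells. Sycp1 fell by 0.22 (FDR = 0.011) in IPO13+/+ and by 0.19 (FDR = 0.017) in IPO13-/- cells, and Stk31 by 0.21 in both (FDR = 0.043 and 0.030, edgeR's quasi-likelihood test). Dazl fell by 0.25 in IPO13+/+ cells (FDR = 0.0034), and its log2 difference of -0.11 in IPO13-/- cells did not pass (FDR = 0.14). Leaving out replicate 1 of the untreated or of the treated IPO13+/+ libraries took the FDR of Dazl to 0.070 and 0.063. Leaving out replicate 1 of the treated IPO13+/+ libraries took Sycp1 to 0.22 in that line, leaving out replicate 1 or replicate 2 of the untreated IPO13-/- libraries took it to 0.060 each, and the fall of Stk31 in IPO13+/+ cells kept an FDR below 0.05 in 2 of 16 alternative analyses. In IPO13-/- cells Sycp1 went to 0.089, 0.21 and 0.33 without replicate 1 or 2 of the untreated and without replicate 1 of the treated libraries. Stk31 went to 0.45 there without replicate 1 of the untreated libraries, and to 0.25 and 0.066 without replicate 1 or 2 of the treated libraries. The 3 genes with the largest genotype differences had no detectable response to H2O2. The 95% interval of the log2 change ran from -0.01 to 0.53 in IPO13+/+ and from -0.06 to 0.22 in IPO13-/- cells for Slc25a31, and from -0.35 to 0.37 and from -0.37 to 0.06 for Tdrkh. For Tex101 it ran from -0.39 to 1.16 and from -0.45 to 0.46, which leaves room for a change of 2-fold in IPO13+/+ cells.

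**Figure D3:**
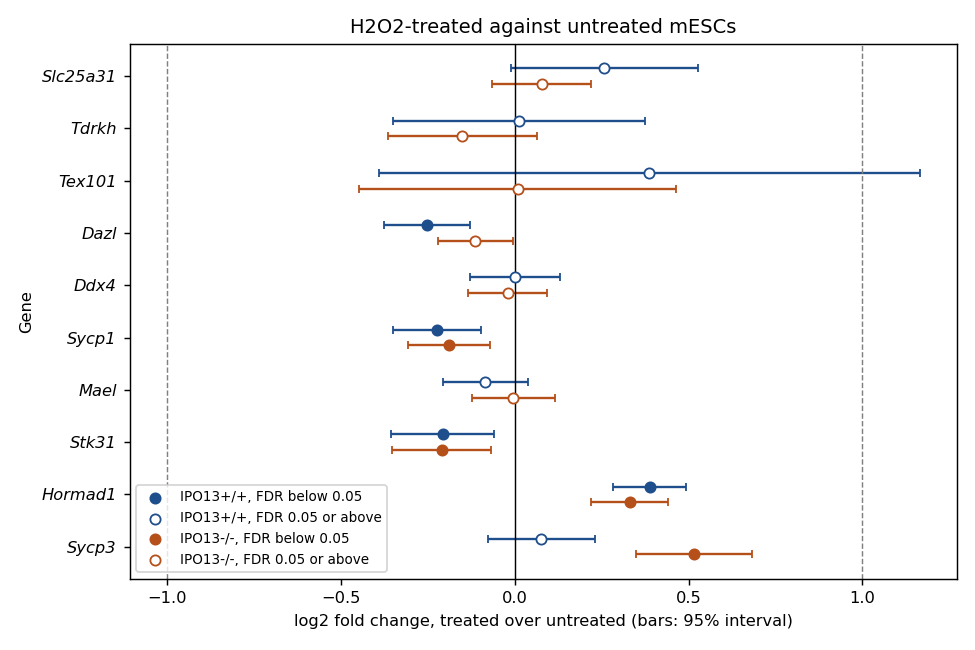
Log2 fold change of each germline gene after H2O2 (horizontal axis) in IPO13+/+ and in IPO13-/- mESCs, from edgeR's fit of 8 libraries. Bars are 95% intervals by a normal approximation. Filled points passed an FDR of 0.05 and dashed lines mark 2-fold; Hormad1 rose in both lines, by 0.39 and 0.33, and every estimate lies inside the 2-fold lines.

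The response to stress differed between the lines in 1 of the 10 genes, Sycp3, where the interaction of genotype and stress was 0.44 on the log2 scale (SE 0.12, edgeR's quasi-likelihood test, FDR = 0.036). Over all genes 2.71% had such an interaction. The value kept its sign in every alternative, between 0.35 and 0.54, but passed the FDR in 4 of 15, and it failed when any 1 of 6 libraries was left out. These were replicate 2 of untreated (FDR = 0.073) and replicate 1 of treated IPO13+/+ cells (FDR = 0.26), replicates 1 and 2 of untreated IPO13-/- cells (FDR = 0.36 and 0.17) and replicates 1 and 2 of treated IPO13-/- cells (FDR = 0.065 and 0.20). Chpt1, whose reads overlap those of Sycp3, had an interaction of 0.06 (SE 0.09, FDR = 0.86). For the other 9 genes the interaction did not pass, with intervals from -0.48 to 0.12 for Slc25a31, from -0.58 to 0.26 for Tdrkh and from -0.03 to 0.30 for Dazl.

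Other germline genes of the same kinds were read from lists written with earlier results of these data known. Their counts and medians therefore describe the listed genes only. Of 20 further genes of the piRNA pathway, 8 were higher and 4 lower in untreated IPO13-/- cells at an FDR below 0.05, with a median log2 difference of 0.22. Over all genes 18.7% were higher and 19.4% lower in this comparison, a background that holds for the counts of the other lists too. Those past 2-fold in both treatments were Asz1 (2.79 untreated, SE 0.14), Gtsf1 (2.26, SE 0.15) and Mov10l1 (1.89, SE 0.09), which act in piRNA production or in silencing by piRNAs. Asz1 had 39 and 57 reads in untreated IPO13+/+ and 348 and 318 in untreated IPO13-/- cells. Of 26 meiotic genes 14 were higher and 1 lower, with a median of 0.52, and Meioc (1.90, SE 0.08), Mei1 (1.09, SE 0.31) and the meiotic cohesin subunit Smc1b (1.03, SE 0.07) were past 2-fold in both treatments. Meioc appears in the files under its older symbol Gm1564. Of 22 other autosomal germline genes 10 were higher, against 18.7% of all genes, and 2 lower, against 19.4%, with a median of 0.17. Here Ctcfl (3.48, SE 0.42), the germ cell counterpart of CTCF, Tuba3b (2.41, SE 0.12), Brdt (2.12, SE 0.19), Adad1 (1.22, SE 0.31) and Sohlh2 (1.09, SE 0.06) were past 2-fold in both. Ctcfl rests on 2 and 5 reads in untreated IPO13+/+ and 40 and 41 in untreated IPO13-/- cells, and Tuba3b may share reads with the closely similar Tuba3a, which differed by -0.35 (SE 0.05).

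X-linked germline genes, among them cancer-testis and reproductive homeobox families, were read from a list of their own. This list too was written with earlier results known, so its counts and median describe the listed genes only. Of 20 X-linked germline genes 18 were higher and 1 lower in untreated IPO13-/- cells, 16 of them by at least 2-fold in both treatments, and the median log2 difference was 3.47 over the 19 with at least 10 reads in all libraries together. Usp26 had 556 and 471 reads in untreated IPO13+/+ cells and 4352 and 3345 in untreated IPO13-/- cells (log2 2.89, SE 0.07). Rhox13 had 146 and 162 against 928 and 829 (2.51, SE 0.09), Nxf2 121 and 132 against 597 and 525 (2.14, SE 0.10) and Taf7l 421 and 476 against 1005 and 894 (1.08, SE 0.07). The others past 2-fold in both treatments were Tktl1, Tex16, Magea2, Magea3, Magea5, Magea6, Magea8, Xlr3a, Xlr3b, Xlr4a, Xlr4b and Rhox2a. The gene that was lower was the ferritin-like Fthl17a, under its older symbol 1600014K23Rik in the files, at 13 and 20 against 7 and 6 reads. Members of the Magea, Xlr and Rhox2 families are near copies that can share reads, so their values are uncertain, and several Magea genes had 0 to 5 reads in an IPO13+/+ library. Over the 470 genes of the X chromosome with at least 400 reads over the libraries, the median was 0.09. Some of the listed genes are among them. At an FDR below 0.05, 41.9% of the 470 were higher in untreated IPO13-/- cells, and 8.94% were higher by 2-fold as well.

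**Figure D4:**
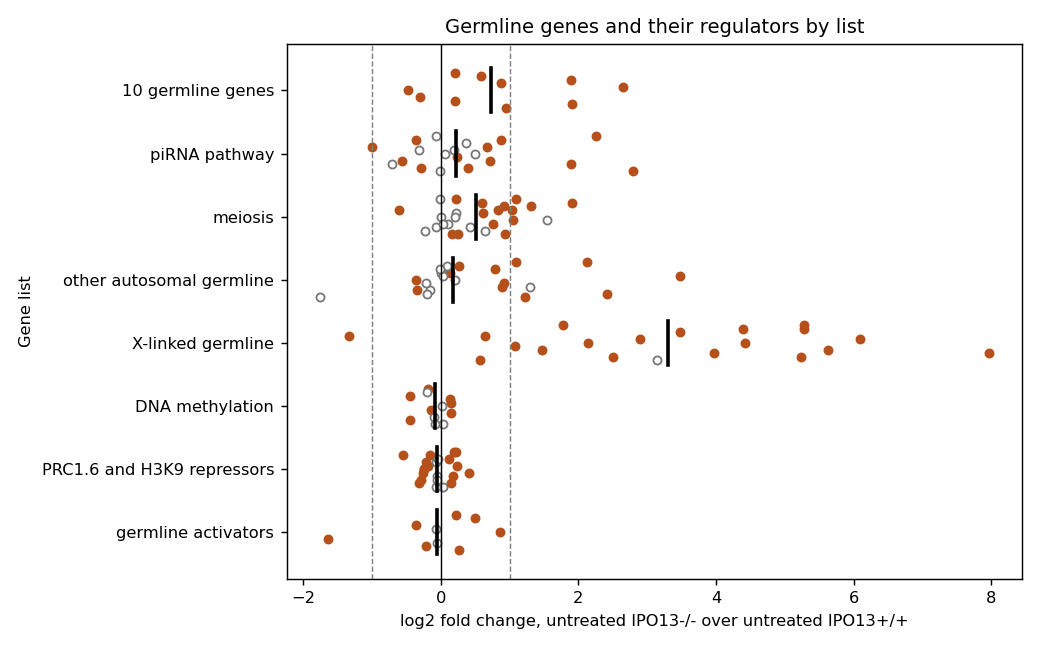
Log2 fold change between untreated IPO13-/- and IPO13+/+ mESCs (horizontal axis) for every gene of 8 lists (rows), with the 10 germline genes at the top. Filled points passed an FDR of 0.05 by edgeR, open points did not, black bars are list medians (0.73 for the 10 genes) and dashed lines mark 2-fold; the values of genes with almost no IPO13+/+ reads, most of them X-linked, depend on the fit's prior count.

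Enzymes and repressors known to act on germline promoters differed by less than 2-fold. Of 12 genes of DNA methylation and its removal, 3 were higher and 4 lower in untreated IPO13-/- cells, where 18.7% and 19.4% of all genes were, with a median log2 difference of -0.09. The maintenance methyltransferase Dnmt1 differed by 0.03 (SE 0.04, FDR = 0.62), its partner Uhrf1 by -0.14 (SE 0.04, edgeR's quasi-likelihood test, FDR = 0.0029), Dnmt3a by 0.13 (SE 0.05, FDR = 0.038), Dnmt3b by 0.15 (SE 0.04, FDR = 0.0026) and their cofactor Dnmt3l by -0.19 (SE 0.04, FDR = 0.00023). Among the dioxygenases that oxidise methylcytosine, Tet1 differed by 0.03 (SE 0.07, FDR = 0.82), and Tet2 was lower, at -0.44 (SE 0.06, FDR = 2.2e-06). Tet3 was lower by edgeR's quasi-likelihood test too, at -0.45 (SE 0.07, FDR = 5.7e-06) in untreated and -0.92 (FDR = 2.2e-11) in treated cells, with an interaction of -0.47 (FDR = 0.0049), and was singled out after its values were seen. Tet2 had 20952 and 18342 reads in untreated IPO13+/+ cells against 16951 and 12331 in untreated IPO13-/- cells. Of 22 genes of the Polycomb complex and of histone H3 lysine 9 methylation, 7 were higher and 9 lower, with a median of -0.06. E2f6 was higher by 0.19 (SE 0.05, FDR = 0.0033), while Mga (-0.21, SE 0.05), L3mbtl2 (-0.26, SE 0.04) and Setdb1 (-0.16, SE 0.04) were lower and Pcgf6 (-0.05, SE 0.04) did not pass. The most abundant genes of this list, Trim28 and Wdr5, were higher by 0.15 (SE 0.03) and 0.12 (SE 0.04). In a list of 9 activators of germline genes 4 were higher and 3 lower. Prdm1, a regulator of primordial germ cell fate, was lower in IPO13-/- cells, with a log2 difference of -1.64 (SE 0.07) untreated and a value past 2-fold treated, with 1422 and 1367 reads in untreated IPO13+/+ against 494 and 405 in untreated IPO13-/- cells. Dnmt3b, Mga, Wdr5, Ctcfl and the activators Tfap2c and Tcfl5, which were higher by 0.86 and 0.50, lie on chromosome 2. Its 947 genes with at least 400 reads over the libraries themselves had a median of 0.27.

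None of the 10 germline genes lies on chromosome 2 or X. Slc25a31, Tdrkh, Hormad1 and Sycp1 lie on chromosome 3. Its other genes with at least 400 reads over the libraries numbered 533. Their median log2 difference was -0.02 in untreated cells, against -0.02 for such genes elsewhere. The nearest counted genes on either side of the 10 were examined too, 20 in all with at least 400 reads over the libraries. In untreated cells 6 of them passed the FDR upward and 4 downward, where 18.7% and 19.4% of all genes did, and the median was 0.04. Past 2-fold upward, as 2.86% of all genes were, was 1 of the 20. It was Hspa4l, an Hsp110-family chaperone gene named after its value was seen, which lies 18.4 kb from Slc25a31 and had 319 and 325 reads in untreated IPO13+/+ against 744 and 561 in untreated IPO13-/- cells (log2 1.01, SE 0.08, edgeR's quasi-likelihood test, FDR = 8.4e-11). Intu, on the other side of Slc25a31 at 4.08 kb, differed by -0.02 (SE 0.07, FDR = 0.85).

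Markers of other cells that could hold RNA of the germline genes were summed in each library, as CPM of the library total without TMM factors. The summed level of 10 spermatid markers lay between 0.298 and 0.649 CPM in every library, with 7 to 9 of the 10 at or below 3 reads in both libraries of a group, and the protamine genes Prm1 and Prm2 and the acrosomal Acrv1 at 0 throughout. Oocyte markers summed to between 5.57 and 6.07 CPM in IPO13+/+ and between 4.68 and 5.15 in IPO13-/- libraries, and primordial germ cell markers to between 427 and 441 and between 398 and 432. Of the 10 primordial germ cell markers, none was at or below 3 reads. In untreated IPO13-/- cells 5 of the 10 were higher and 3 lower. Tfap2c, on chromosome 2, was at 0.86 (SE 0.05) and Kit at 0.43 on the log2 scale, against Prdm1 at -1.64 (SE 0.07) and Ifitm3 at -0.54. These examples were picked after their values were seen. Pluripotency markers summed to between 6860 and 7257 CPM in IPO13+/+ and between 6110 and 6513 in IPO13-/- libraries. The summed level of Sertoli and Leydig cell markers was higher in IPO13-/- cells, at 75.4 to 83.3 CPM against 36.7 to 42.6. Much of this lay in the X-linked Rhox5, with a mean of 17.1 normalised CPM in untreated IPO13+/+ and 50.3 in untreated IPO13-/- cells. Rhox5 had 1163 to 1249 reads in IPO13+/+ and 3052 to 3899 in IPO13-/- libraries. Of 9 markers tested, 3 were higher and 0 lower in untreated IPO13-/- cells, where 18.7% and 19.4% of all genes were. Amh (-0.48) and Star (-0.29) were among those below 0 without passing the FDR. The steroidogenic Hsd3b1 was at 0 throughout. Fibroblast markers summed to between 17.1 and 22.1 CPM in IPO13+/+ and between 20.6 and 25.6 in IPO13-/- libraries, primitive endoderm markers to between 445 and 482 and between 384 and 403, and trophectoderm markers to between 62.8 and 73.8 and between 41.9 and 44.6. Markers of two-cell-like cells, a rare state of mESCs, were at 3.31 to 4.57 CPM against 1.68 to 2.19. The part of these differences in the levels of the germline genes was not tested, and more cells of a kind cannot be told apart from more RNA per cell in bulk libraries.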

How the data were processed

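RNA sequencing libraries of IPO13+/+ and IPO13-/- mESCs were prepared with a TruSeq mRNA kit, and reads were mapped to mm10. The submitters' processing notes name bcl2fastq, STAR 2.3.1, HTSeq and limma, whose roles, strand setting and annotation are not given in the sources used here. The authors deposited raw counts per gene symbol for each library, and these counts were used for every test. The deposited CPM, each count divided by its library total, matched the counts within 0.0005 and was not used further. Groups were taken from the sample titles.

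Counts of the 19424 genes with at least 1 read in any library were scaled with TMM factors. They were fitted in 1 model of 8 libraries by edgeR 4.0.16 (R 4.3.3). Its quasi-likelihood test was checked on simulated data with the same spread for every gene and group and differences only in well-counted genes. That check covers neither the unequal spread of the real groups nor genes with few reads, such as Tex101. P-values were adjusted over all tested genes by the Benjamini-Hochberg method (FDR), and standard errors were derived from the F statistic. Calls required an FDR under 0.05 together with a 2-fold difference, or for the interaction the FDR alone. Levels are CPM after TMM scaling, and with 2 libraries a group an exact permutation test cannot go below 0.33. Alternatives were limma-voom (limma 3.58.1), DESeq2 1.42.0, other scalings and filters, fits of 4 libraries, a replicate block and leaving out each library. Promoters and the 250-base windows came from RefSeq, and positions from GENCODE M21. All 10 genes are named, with the other listed genes called in both genotype comparisons or, failing these, the 2 with the most reads, and regulators chosen by name. The 10 genes and all lists were chosen with earlier results of these data known.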

Additional observations from a re-analysis of the deposited data

Results flagged for a closer look

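The response of Sycp3 to H2O2 differed between the lines in the main fit, by a test of the difference itself. The interaction was 0.44 on the log2 scale (SE 0.12, edgeR's quasi-likelihood test, FDR = 0.036). Its value stayed between 0.35 and 0.54 in every alternative, but the call was lost with limma-voom and with DESeq2. Sycp3 had 453 and 504 reads in IPO13+/+ cells before and 467 and 542 after H2O2, against 376 and 314 before and 447 and 459 after H2O2 in IPO13-/- cells. The overlapping gene Chpt1 had 665 and 753, then 668 and 720, and 901 and 748, then 794 and 755 reads. Whether reads of Chpt1 contribute to the count of Sycp3 was not tested.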

How the results depend on the processing

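With the FDR limit alone in place of FDR and 2-fold, the number of germline genes called was 10 and 9 for genotype in untreated and treated cells and 4 and 4 for stress in IPO13+/+ and IPO13-/- cells. The count for the interaction fell from 1 to 0 with limma-voom, DESeq2, library totals without factors, filterByExpr (15191 genes) and at least 10 reads over all libraries (17081 genes). Leaving out 1 library, which leaves a group with 1 library whose spread is taken from the other groups, gave interaction counts between 0 and 1. The genotype count was 3 to 4 in untreated cells and 4 in all alternatives with the 2-fold limit in treated cells, and the stress counts were 0. A replicate block in the model left the counts at 3, 4, 0, 0 and 1, and that pairing changed no call of a single gene. The labels do not say that numbers mark a shared day or culture, and the correlation of deviations between same-numbered libraries ran from -0.04 to 0.49 over 11124 genes. Of 790 alternative values for single genes, 739 stayed on the same side of the FDR, 50 no longer passed it and 1 newly passed. Past the FDR 0 reversed direction, and 29 of the 739 changed sign while passing in neither fit. The calls lost belong to Stk31, Sycp1, Dazl, Mael and the Sycp3 interaction, and the cause was not tested. Library totals moved the median of all genes by at most 0.081. Few reads limit Tex101.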

Other observations

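Xist, the RNA that coats an inactive X chromosome, had 793 and 757 reads in untreated IPO13+/+ cells, 1090 and 1137 after H2O2, 487 and 310 in untreated IPO13-/- cells and 432 and 383 after H2O2. The Y-linked genes Ddx3y, Eif2s3y, Kdm5d and Uty had 0 reads in all libraries, with the exception of 1 read of Ddx3y in 1 treated IPO13-/- library. Chromosome 2 holds none of the 10 germline genes. Of its 947 genes with at least 400 reads over the libraries, 72.4% were higher in untreated IPO13-/- cells. The limit was an FDR below 0.05 by edgeR's quasi-likelihood test.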
